A study of Boehmeria nivea with 2 samples.

Results

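Class III peroxidases are secreted heme enzymes of plants. They use hydrogen peroxide to oxidize phenolic compounds, and in cell walls they couple monolignols into lignin and cross-link wall proteins. They can also produce reactive oxygen species, and plant genomes hold large families of them whose members differ in tissue and in response to wounding, pathogens and herbivores. Here they were taken as the unigenes whose Swiss-Prot best hit is named Peroxidase, or is an anionic or cationic peroxidase, with ascorbate peroxidases, glutathione peroxidases and peroxiredoxins left out. The rule found 54 of 46,533 unigenes, and it used no measured value.

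Leaf RNA of 30-day-old ramie (Boehmeria nivea), cultivar Chuanzhu No.8, was sequenced in 2 libraries. CK came from plants without larvae, which the labels call mock-challenged, and CH from plants on which larvae of the ramie moth (RM, Cocytodes coerulea), fasted for 12 h beforehand, were placed on a lower leaf. The sampled leaves were the topmost undamaged ones, so the leaf that was eaten was not measured. Each library is an equal mixture of RNA from 12, 24, 48 and 72 h, with 5 plants pooled at each time, so time points and plants cannot be separated. There is 1 library per group and no replicate check of any difference. Counted fragments, called reads here, summed to 17,800,062 in CK and 26,938,918 in CH. Leaf markers were abundant, with a summed level of 68284 RPKM (reads normalized to unigene length and library total) over 75 unigenes of rubisco small chain, rubisco activase and chlorophyll-binding proteins in CK. In CH this sum was 27518 RPKM, and 7 of the 75 had 0 reads in CK against 10 in CH. By the rule given below, 18 of the 71 with reads were lower and 0 higher, beside 4.28% and 2.48% of all tested unigenes. The part of this difference in the peroxidase values was not tested. In a mixture of cells, fewer cells of a type and less RNA per cell cannot be told apart.

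The annotation of the members was mostly that of peroxidases. Among the 54, 51 carried the GO term peroxidase activity, 49 heme binding and 45 response to oxidative stress. Terms for the wall or the space outside the cell were common, with plant-type cell wall on 35, extracellular region on 32 and apoplast on 27. A KEGG hit was given for 28, all to ortholog K00430, and no unigene outside the family carried that ortholog. In Nr, 38 best hits named a peroxidase, 14 gave a protein without a functional name, and 2 named another protein. These 2 were comp36953_c0, with a purple acid phosphatase, and comp37766_c0, with a serine-rich adhesin-like protein, so their Nr hits do not back their place in the family. Neither had a KEGG hit, and comp36953_c0 also lacked the terms peroxidase activity and heme binding. Peroxidase 29 (comp38544_c0), with an uncharacterized protein in Nr, lacked the term peroxidase activity and a KEGG hit. All were kept as members by the naming rule. Best hits in Swiss-Prot were to Arabidopsis for 46 members, and 33 different names occurred. The name of a best hit does not make a ramie unigene the ortholog of that gene. Just outside the rule, because their names start with another word, were unigenes named Putative Peroxidase 48 (comp21614_c0) and Probable peroxidase 26 (comp36821_c3). The first, with 170 reads in CK against 130 in CH, was lower in CH by the rule used for calls (log2 −1.13). The other, with 632 against 991, was not called (log2 0.03). Neither enters any count of members.

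Many members were short assembled fragments with hardly any reads. The family had a median length of 758 bp, and 20 of the 54 had fewer than 10 reads over both libraries, 1 of them (comp1193553_c0, Peroxidase 54) none at all. These 20 held 30 reads in CK and 36 in CH, their median length was 294 bp, and none exceeded 1.78 RPKM. No read was counted for 4 members in CK and for 5 in CH, which at a floor of 3 reads allows a share of up to 1.69e-05% of CK or 1.11e-05% of CH. The other 34 members had a median length of 1216 bp, against 1010 bp for all unigenes with at least 10 reads. Fragments of 1 gene can be counted as several members. In 5 assembled components there were 2 members each, and members of a component can share reads.

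A pair of genes supplied most peroxidase transcript in both libraries. Peroxidase 42 (comp34449_c0), whose Arabidopsis namesake is transcribed in most organs, had 34,589 reads in CK against 48,698 in CH. Its level was 1145 RPKM in CK and 1063 RPKM in CH, place 60 and 59 among all unigenes, the highest level of the family in both. The lignin-forming anionic peroxidase comp32955_c0, named for a tobacco enzyme that polymerizes lignin precursors, had 7,725 reads in CK against 36,287 in CH, or 320 and 991 RPKM. It was the second most abundant member in both, and rose from place 240 to place 66 among all unigenes. Together they held 78.3% of the family's reads in CK and 76.4% in CH. Peroxidase 42 stood 3.58 times above the lignin-forming peroxidase per length in CK and 1.07 times above it in CH, and their exact 95% Poisson intervals did not overlap in either library.

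**Figure D1:**
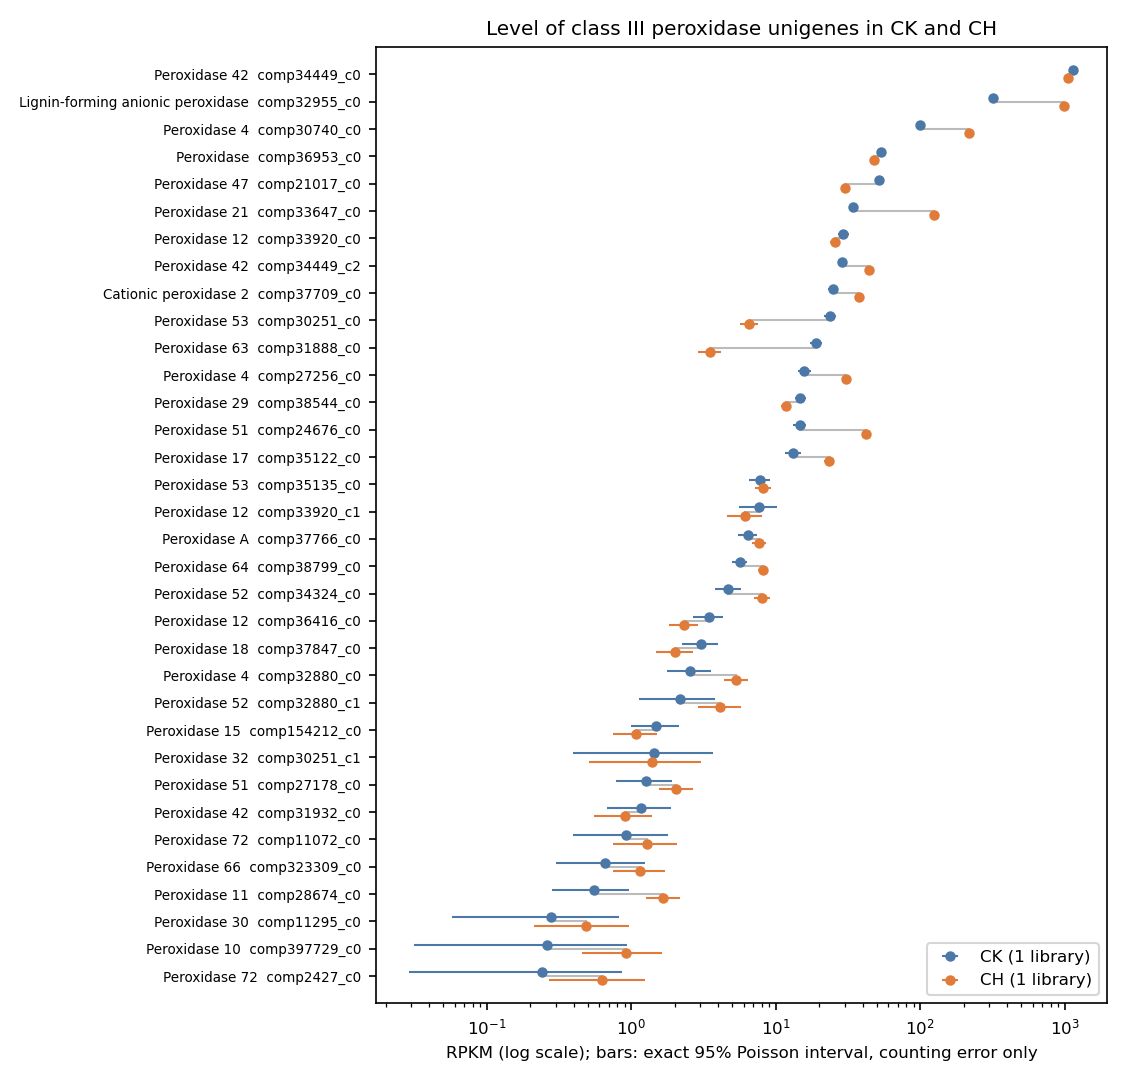
Level of each class III peroxidase unigene with at least 10 reads over both libraries, as RPKM on a log axis, ordered by the level in CK, with CK in blue, CH in orange and exact 95% Poisson intervals for counting error. Peroxidase 42 lies near 1000 RPKM in both libraries, and the lignin-forming peroxidase comp32955_c0 comes close to it in CH only.

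Below these came a graded series of levels. In both libraries Peroxidase 4 (comp30740_c0), whose Nr hit is named a lignin-forming anionic peroxidase, came next, with 100.2 RPKM in CK and 218 in CH. It was followed in CK by comp36953_c0 (53.2 RPKM) and Peroxidase 47 (comp21017_c0, 52.3 RPKM), whose intervals overlapped, and then by Peroxidase 21 (comp33647_c0, 34.3 RPKM). The CK levels of Peroxidase 21, Peroxidase 12 (comp33920_c0, 29.4 RPKM) and the other abundant Peroxidase 42 unigene (comp34449_c2, 28.7 RPKM) were neighbours with overlapping intervals. So were those of Peroxidase 4 (comp27256_c0, 15.8 RPKM), Peroxidase 29 (comp38544_c0, 14.8 RPKM), Peroxidase 51 (comp24676_c0, 14.7 RPKM) and Peroxidase 17 (comp35122_c0, 13.2 RPKM). In CH the fourth place was held by Peroxidase 21, clear of its neighbours at 125 RPKM. At least 10 RPKM was reached by 15 members in CK and 13 in CH, and at least 100 RPKM by 3 and 4. The median level of the 34 members with at least 10 reads was 7.04 RPKM in CK and 7.13 in CH, where all such unigenes had 5.64 and 5.13.

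Peroxidase transcripts took a larger share of the CH library than of the CK library, and the lignin-forming peroxidase carried most of that difference. The 54 members had 54,013 reads in CK against 111,176 in CH, which is 0.303% and 0.413% of the counted reads. The ratio of these shares was 1.36 (exact 95% counting interval 1.35 to 1.37). Without the lignin-forming peroxidase comp32955_c0 it was 1.07 (1.06 to 1.08), and without Peroxidase 42 (comp34449_c0) it was 2.13 (2.09 to 2.16). With both left out, the other 52 members gave 1.48 (1.45 to 1.51). Within the family, Peroxidase 42 went from 64.0% of the reads in CK to 43.8% in CH, and the lignin-forming peroxidase from 14.3% to 32.6%.

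**Figure D2:**
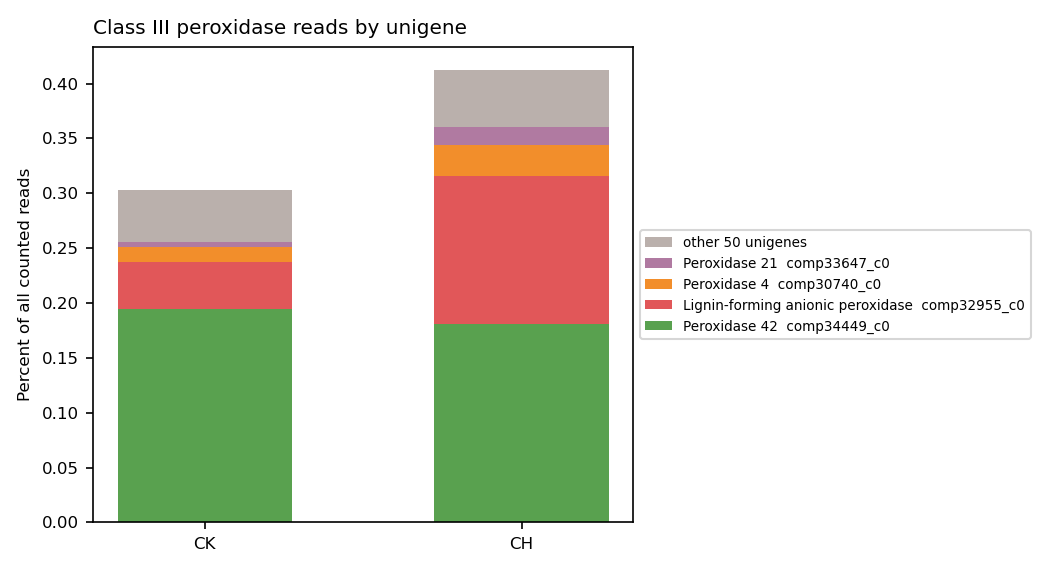
Reads of class III peroxidases as a percentage of all counted reads in CK and CH, 1 library each, stacked by unigene from 0. The whole bar rises from 0.303% to 0.413%, and the red segment of comp32955_c0 rises from 0.0434% to 0.135% while the green segment of Peroxidase 42 (comp34449_c0) is 0.194% in CK and 0.181% in CH.

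By the Audic-Claverie rule more members were called higher than lower in CH, while over all unigenes more were called lower. This order depends on the test, as the edgeR counts below show, and the difference between the members and other unigenes was not tested. To be called, a unigene needed an adjusted p below 0.01 in the Audic-Claverie test (2-sided, on reads) and an RPKM ratio of 2 or more in either direction. Calls and log2 values use RPKM, while fold differences and their counting intervals are ratios of reads per library total. The 2 measures can differ, so an interval set against 2-fold is not that of the RPKM ratio. By this rule 6 members were higher in CH, 2 were lower and 45 of the 53 with reads were not called. The 6 are 11.3% of the tested members and the 2 are 3.77%, beside 2.48% higher and 4.28% lower over all 43,302 unigenes tested. Among unigenes with at least 10 reads, 4.54% were higher and 7.71% lower, beside 17.6% and 5.88% of the 34 members. The median log2(CH/CK) of these 34 was 0.57 (interquartile range −0.29 to 0.94), and that of all such unigenes −0.02. The test compares these 2 libraries and not the conditions. When edgeR took the spread from both libraries without regard to their groups, its exact test called 0 members in either direction. That setting called 0.139% of all unigenes higher and 0.118% lower. Where the coefficient of variation was instead set to 0.2, edgeR called 2 members higher, comp32955_c0 and comp33647_c0, and 2 lower (1.14% and 1.34% of all). Set to 0.4, it called 0 in either direction (0.309% and 0.12% of all). At 2-fold and an unadjusted p below 0.05 in the edgeR exact test, 3 members were higher and 2 lower with the spread taken from both libraries. At that cut there were 6 and 3 with 0.2, and 1 and 2 with 0.4. The share of all unigenes at the unadjusted cut was not counted, so these numbers have no background beside them.

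**Figure D3:**
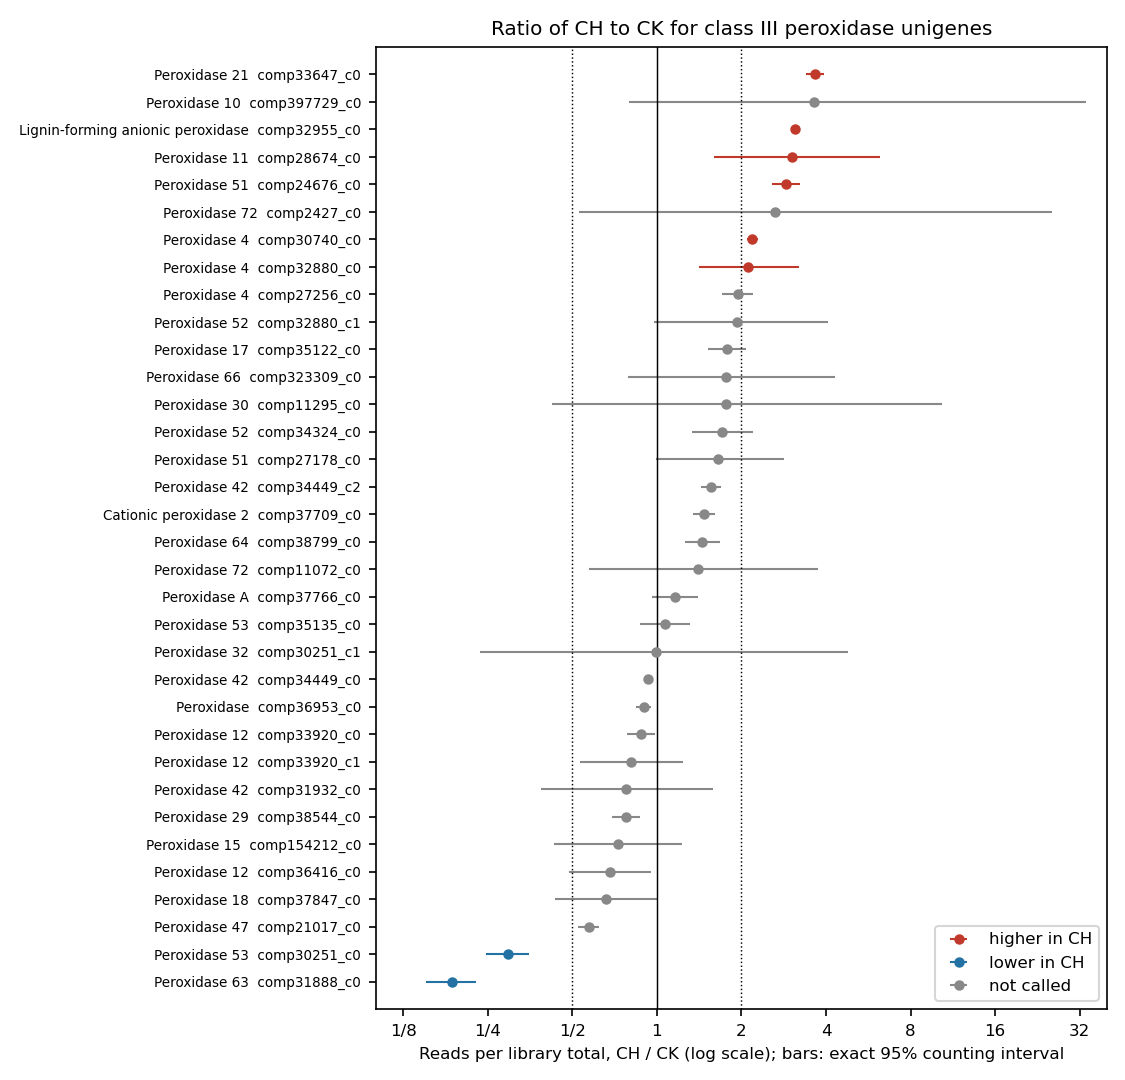
Ratio of reads per library total, CH over CK, on a log axis for the 34 members with at least 10 reads, with exact 95% counting intervals and dotted lines at 2-fold. The 6 members in red were called higher in CH and the 2 in blue lower, and wide intervals belong to members with few reads.

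The 6 higher members included the most abundant peroxidases after Peroxidase 42, and best hits tied to lignin formation were among them. The lignin-forming peroxidase comp32955_c0, described above, was 3.10-fold higher in CH (counting interval 3.03 to 3.18). Peroxidase 4 (comp30740_c0), in Arabidopsis linked to lignin of the stem, had 2,317 reads in CK against 7,670 in CH and was 2.19-fold higher (2.09 to 2.29). Its interval lies close above the 2-fold threshold, while that of comp32955_c0 lies wholly above it.

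Peroxidase 21 (comp33647_c0) had the highest ratio of the called members as a point estimate, which lies within the wide interval of Peroxidase 11 given below. It had 803 reads in CK against 4,433 in CH, or 34.3 and 125 RPKM, a 3.65-fold difference (3.38 to 3.94). Peroxidase 51 (comp24676_c0), which Nr calls similar to peroxidase 73, had 373 and 1,628 reads, or 14.7 and 42.3 RPKM, and was 2.88-fold higher (2.58 to 3.24). It moved from place 14 to place 7 among the members. Both lower interval bounds are above 2.

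The remaining higher members were scarce. Peroxidase 11 (comp28674_c0) had 12 reads in CK against 55 in CH, 0.55 and 1.67 RPKM, with a ratio of 3.03 (1.60 to 6.21) and an adjusted p of 0.00121 in the Audic-Claverie test. Peroxidase 4 (comp32880_c0), with a best hit to grape, had 33 and 105 reads, 2.56 and 5.35 RPKM, with a ratio of 2.10 (1.41 to 3.21) and an adjusted p of 0.000736. Their intervals reach below 2, so the 2-fold size of these differences is not fixed at this depth. On RPKM + 1 neither reached 2-fold. A shorter fragment of the same component as the latter, Peroxidase 52 (comp32880_c1), had 12 and 35 reads and was not called, with a ratio of 1.93 (0.977 to 4.08).

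The 2 lower members were of middle abundance in CK. Peroxidase 63 (comp31888_c0) had 448 reads in CK against 126 in CH, or 19.0 and 3.51 RPKM, and was 5.38-fold lower in CH (4.41 to 6.61). It was the only member whose difference exceeded 4-fold among those called, and its place among the members went from 11 to 22. Peroxidase 53 (comp30251_c0), whose Arabidopsis namesake can polymerize lignin precursors, had 426 and 190 reads, or 23.9 and 6.54 RPKM. It was 3.39-fold lower on reads per library total (2.85 to 4.05), with a log2 of −1.87 on RPKM. The other Peroxidase 53 unigene (comp35135_c0, named after its values were seen) had 154 and 249 reads and a ratio of 1.07 (0.870 to 1.31). The intervals of these 2 unigenes with the same best-hit name did not overlap. The Nr hits of Peroxidase 63 (comp31888_c0) and of the higher Peroxidase 11 (comp28674_c0) carry no functional name, so among members that Nr also names peroxidase 5 were higher and 1 lower.

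Set against Peroxidase 42 in the same library, which removes the scaling between libraries, every ratio is multiplied by the same factor, so this gives the proportions within the family and no further check of the calls. For every 100 reads of Peroxidase 42 (comp34449_c0) there were 22.3 reads of the lignin-forming peroxidase comp32955_c0 in CK and 74.5 in CH, a 3.34-fold change of the ratio (95% interval 3.24 to 3.43). Peroxidase 21 (comp33647_c0) went from 2.32 to 9.10 reads per 100 (3.92-fold, 3.63 to 4.23), and Peroxidase 51 (comp24676_c0) from 1.08 to 3.34 (3.10-fold, 2.77 to 3.47). Peroxidase 63 (comp31888_c0) went from 1.30 to 0.259 reads per 100, a ratio with an interval of 0.164 to 0.244. Peroxidase 12 (comp33920_c0) and comp36953_c0 kept nearly the same relation to it, with ratios of 0.943 (0.841 to 1.06) and 0.964 (0.907 to 1.02).

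Peroxidase 42 itself, and several other well-measured members, differed by less than 2-fold. Peroxidase 42 (comp34449_c0) was 1.07-fold lower in CH per library total (1.06 to 1.09), a difference outside counting error but far from the threshold. The other member in its component, comp34449_c2, had 878 reads in CK against 2,069 in CH and was 1.56-fold higher (1.44 to 1.69). The component also held comp34449_c1, which is not a member and is named a probable aquaporin, with 1,569 and 1,855 reads. Per length, comp34449_c0 stood 39.9 times above comp34449_c2 in CK and 23.9 times in CH. Reads shared between unigenes of the component would make the lesser ones uncertain.

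Uncalled members fell into groups by their intervals. Higher in CH by less than 2-fold, with an interval above 1, were 6 members with at least 10 reads. Peroxidase 4 (comp27256_c0), with a best hit to grape, had 334 and 979 reads and a ratio of 1.94 (1.71 to 2.20), just under the threshold on RPKM, with a log2 of 0.95. Cationic peroxidase 2 (comp37709_c0), named for a peanut enzyme, had 701 and 1,559 reads and a ratio of 1.47 (1.34 to 1.61). The others, besides comp34449_c2 and named after their values were seen, were Peroxidase 17 (comp35122_c0, ratio 1.77), Peroxidase 52 (comp34324_c0, 1.71) and Peroxidase 64 (comp38799_c0, 1.45). In Arabidopsis, peroxidases with these last 3 names act in lignified tissues, the last in the Casparian strip of the root.

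Lower in CH by less than 2-fold, with an interval below 1, were also 6. Peroxidase 47 (comp21017_c0), known in Arabidopsis from xylem vessels, had 1,142 reads in CK against 989 in CH, or 52.3 and 30.0 RPKM, and was 1.75-fold lower (1.60 to 1.90). Peroxidase 29 (comp38544_c0) was 1.29-fold lower (1.15 to 1.45), comp36953_c0 1.11-fold (1.05 to 1.18) and Peroxidase 12 (comp33920_c0) 1.14-fold (1.02 to 1.28). The remaining 2 were Peroxidase 42 (comp34449_c0) and another Peroxidase 12 unigene, comp36416_c0, with 73 and 75 reads and a 1.47-fold lower share (1.05 to 2.06). The latter was named after its values were seen.

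For 14 members with at least 10 reads the interval held 1, so no difference was detectable at this depth. The one with the most reads was comp37766_c0, with 183 in CK and 321 in CH and an interval of 0.964 to 1.40. Peroxidase 18 (comp37847_c0), at 49 in both, had an interval of 0.436 to 1.00. Peroxidase 10 (comp397729_c0), at 2 against 11, had the widest of the 14, 0.793 to 33.7. These were named after their values were seen. Of the 20 members below 10 reads none was called, and the fewest reads over both libraries with which any unigene was called was 7.

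Summed by best-hit name, the family showed which names were fed by several unigenes. Of the 33 names, 17 had 1 unigene only. Peroxidase 42 had 5, with 35,487 reads in CK against 50,791 in CH, nearly all from comp34449_c0, and a ratio of 0.946 (0.933 to 0.959). The 3 unigenes named Peroxidase 4 together had 2,684 reads in CK against 8,754 in CH, a ratio of 2.16 (2.06 to 2.25). They are not taken as 1 protein, since comp30740_c0 has its best hit in Arabidopsis and the scarcer comp27256_c0 and comp32880_c0 have theirs in grape. Their ratios were 2.19 (2.09 to 2.29), 1.94 (1.71 to 2.20) and 2.10 (1.41 to 3.21), with overlapping intervals, and the second was not called. Peroxidase 12 also had 3, with 642 against 826 reads and an interval of the ratio of 0.766 to 0.944. Peroxidase 53 had 2 unigenes that together gave a ratio between 0.441 and 0.567, from 1 lower and 1 nearly level unigene.

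Terms given to the members by homology were spread over both directions. The term plant-type cell wall covered 20 of the 34 members with at least 10 reads, with a median log2 of −0.10 and 2 calls each way, while the other members had a median of 0.85. The term defense response to nematode was carried by 17 unigenes of the whole annotation, and all 17 were class III peroxidases. Of these, 4 were higher in CH (comp32955_c0, comp24676_c0, comp32880_c0 and comp28674_c0), 1 was lower (comp30251_c0), and the median log2 of the 13 with at least 10 reads was 0.78. The term lignin biosynthetic process was on 11 members, of which Peroxidase 21 (comp33647_c0) and Peroxidase 11 (comp28674_c0) were higher and 0 lower, and the median log2 of the 9 with at least 10 reads was 0.49. Lignin metabolic process was on 11 others, Peroxidase 42 (comp34449_c0) among them, with 0 called and a median log2 of 0.62 over 6. Neither lignin term was on the lignin-forming peroxidase comp32955_c0 or on Peroxidase 4 (comp30740_c0), whose link to lignin here rests on the names of best hits. Over the family 11.3% of tested members were higher and 3.77% lower, and no difference between terms was tested. No member carried a term with the words defense response to insect or response to wounding, which are on 136 and 1,005 unigenes.

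Genes that work beside class III peroxidases were examined as lists chosen by name. Over all tested unigenes 2.48% were called higher and 4.28% lower, and no list was tested against these shares. Among unigenes with at least 10 reads the shares were 4.54% and 7.71%, and these are the closer background for lists made up mostly of such unigenes. Hydrogen peroxide in the cell wall comes in part from respiratory burst oxidases, NADPH oxidases that make superoxide outside the cell. Of 6 such unigenes, 1 was higher and 0 lower. The homolog of RBOHD (comp31069_c1), the Arabidopsis oxidase of the wound-induced oxidative burst, had 348 reads in CK against 1,131 in CH and was 2.15-fold higher (1.90 to 2.43). The other 3 with at least 10 reads had log2 values of −0.27 (comp29035_c0), −0.84 (comp37216_c0) and −0.88 (comp36343_c0) and were not called.

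Amine oxidases and some germin-like proteins are other sources of hydrogen peroxide in the wall. Of 24, 1 was higher and 2 lower, beside 2.48% and 4.28% of all tested unigenes. The germin-like protein comp37604_c2 had 6,204 reads in CK against 160 in CH, and a primary amine oxidase (comp30787_c0) had 223 and 16, 21.1-fold lower (12.7 to 37.5). The higher one, comp723524_c0, had 0 and 14 reads. The highest level of the list in CH was that of another primary amine oxidase, comp37142_c0, named after its values were seen. It had 2,949 reads in CK against 8,580 in CH and was not called, with a ratio of 1.92 (1.84 to 2.01). Of the 18 with at least 10 reads, 8 had a log2 above 0 and 10 below. Median-of-ratios scaling gave 2 higher calls in this list. Superoxide dismutases, which turn superoxide into hydrogen peroxide, had 0 higher and 1 lower of 16 tested, beside the same shares of all unigenes. This was a chloroplast Cu-Zn enzyme (comp29067_c0) with 6,020 and 3,486 reads, 2.61-fold lower (2.51 to 2.73).

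The phenolic substrates of the peroxidases are made by the monolignol pathway. Of its 72 unigenes 2 were higher and 8 lower, where 2.48% and 4.28% of all tested unigenes were called, and 4.54% and 7.71% of those with at least 10 reads. The median log2 of the 56 with at least 10 reads was −0.39. Phenylalanine ammonia-lyase, the entry enzyme, gave calls both ways. Its most abundant unigene (comp27757_c0, named after its values were seen) was lower, with 3,091 reads in CK against 1,984 in CH and a 2.36-fold difference (2.23 to 2.50). Both higher calls of the pathway were scarce phenylalanine ammonia-lyase unigenes, with 5 and 35 reads (comp31590_c0) and with 24 and 79 reads (comp32653_c0). The lower calls with the interval bound farthest from 1 were 4-coumarate:CoA ligases, comp96567_c0 with 35 reads in CK and 6 in CH and comp25248_c0 with 82 and 23. Reads summed to 30,343 in CK and 38,590 in CH, a summed level of 1182 and 984 RPKM.

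Laccases, which also polymerize monolignols, gave 1 higher and 0 lower call among 20, where 2.48% and 4.28% of all tested unigenes were called. Laccase-5 (comp142840_c0) had 5 reads in CK against 42 in CH, a ratio of 5.55 (2.20 to 18.0). Dirigent proteins, which steer the coupling of phenoxy radicals, had 1 higher (comp35162_c0, 5 and 32 reads) and 2 lower (comp27040_c0, 85 and 22 reads, and comp29544_c0, 63 and 44 reads) of 15. The called members of both lists had few reads.

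Enzymes of other families that remove hydrogen peroxide inside the cell had 3 higher and 3 lower calls among 47 tested, beside the 2.48% and 4.28% of all unigenes. A glutathione peroxidase (comp27736_c0) had 4,994 reads in CK against 17,785 in CH, 2.35-fold higher (2.28 to 2.43), the largest number of reads among the called unigenes of these lists. A catalase unigene with a best hit to wheat (comp191149_c0) had 1 read and 56, a ratio of 37.0 (6.37 to 1487). Among the lower calls a peroxiredoxin Q of the chloroplast (comp30082_c0) had 2,448 and 351 reads, 10.6-fold lower (9.43 to 11.8), and a chloroplast 2-Cys peroxiredoxin (comp29921_c0) was 2.34-fold lower (2.21 to 2.47). The summed level of the leaf markers, also chloroplast proteins, went from 68284 to 27518 RPKM, and its part in these values was not tested. The remaining calls, named after their values were seen, were a higher glutathione peroxidase (comp36311_c0, 80 and 266 reads) and a lower peroxiredoxin (comp18641_c0, 508 and 366 reads). Over the 7 lists the medians of log2(CH/CK) lay between −0.55 and 0.11, and that of the class III peroxidases was 0.57. These medians were not tested against each other.

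**Figure D4:**
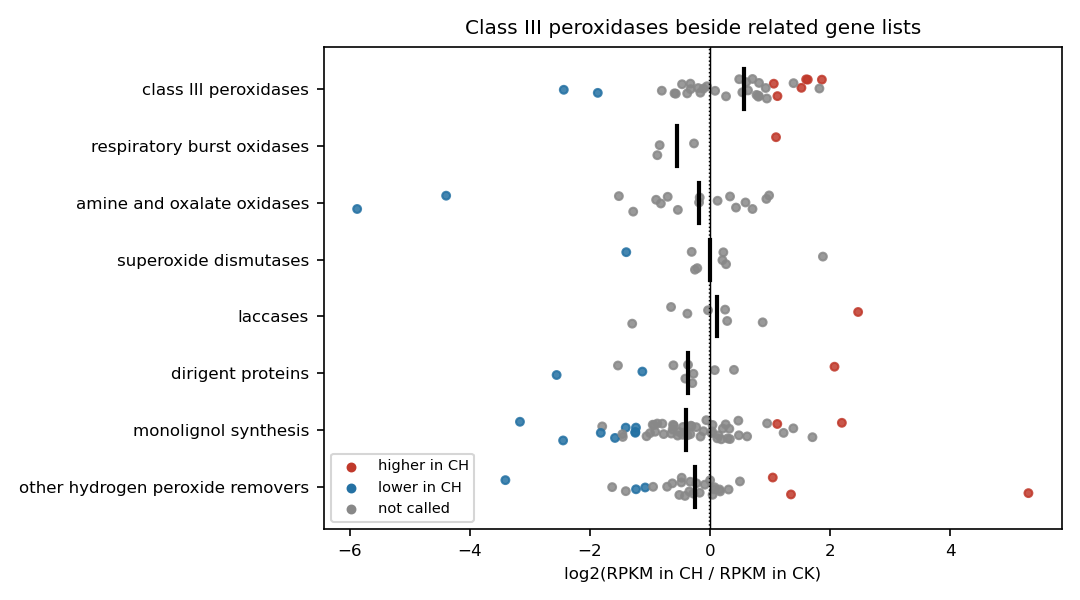
log2 of the RPKM ratio, CH over CK, for unigenes with at least 10 reads in the class III peroxidases and 7 related lists, with called unigenes in color, a black bar at each list's median and a dotted line at the median of all unigenes (−0.02). Unigenes with 0 reads in a library count in the medians at the floor of 3 reads but are not drawn, and the peroxidases have the median farthest to the right (0.57).

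Markers of lignifying and conducting tissue were given beside these values. Of 20 xylem markers (secondary wall cellulose synthases, a COBRA-like protein, xylem cysteine proteinase and 3 laccase types, which the laccase list also holds), 0 were higher and 1, a COBRA-like protein unigene (comp304470_c0, 29 and 14 reads, named after its values were seen), was lower, with a summed level of 32.01 RPKM in CK and 24.5 in CH. Of 7 phloem markers 0 were called, with 166 and 218 RPKM in sum. Among all tested unigenes 2.48% were higher and 4.28% lower. Counts of 0 reads occurred for 1 xylem marker in CK and 2 in CH. Their part in the peroxidase values was not tested.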

How the data were processed

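Trinity was used by the authors to assemble all reads into unigenes, which they annotated by BLASTx. For each unigene the authors deposited an expected count of fragments, without normalization. They also deposited RPKM, which corrects that count for effective length and library total, and TPM, which was left unused here. Lengths in bp, averaged over transcripts, are the authors' too. What mapped and counted the reads was not given in the sources used here; the labels name DESeq with no version. No unigene sequence was used here, so none is printed.

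Expected counts, rounded to whole numbers, entered the Audic-Claverie test, with Benjamini-Hochberg adjustment across 43,302 unigenes that had a read. The script was tested on simulated data. Intervals are exact 95% Clopper-Pearson or Poisson intervals, or, for ratios to Peroxidase 42, normal intervals on the log scale, and cover counting error only. A count of 0 was set to a floor of 3 reads in medians. Members and lists were chosen with earlier results of these data known. The named members were called, among the 10 highest levels in a library, or had at least 1000 reads. In each related list, the 2 highest and 2 lowest called unigenes by the interval bound nearest to 1 were named. Any others are marked, or stand as examples of uncalled members, component partners or unigenes outside the rule, and were likewise chosen after their values were seen. Alternatives comprised a binomial test, edgeR, TMM and median-of-ratios scaling, filters of 10 reads, pseudocounts of 0.1 and 1, a 4-fold threshold and an adjusted p of 0.001. Python 3.11.15 with scipy 1.17.1 and R 4.3.3 with edgeR 4.0.16 and DESeq2 1.42.0 were used.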

Additional observations from a re-analysis of the deposited data

How the results depend on the processing

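No paired analysis was possible because each group has 1 library. Of 12 alternatives for the calls, the assumed variation between libraries and the 4-fold threshold moved the counts of members by more than 1.5 times. The count of higher members, 6, became 0 with edgeR and a blind dispersion (common coefficient of variation 0.407), 2 with an assumed coefficient of 0.2, 0 with 0.4 and 0 at a 4-fold threshold. The 2 lower members became 0, 2, 0 and 1 under the same settings, and 1 among members whose Nr hit names a peroxidase. The related lists had 9 higher calls, which became 0, 1, 0 and 5 under the same 4 settings, 4 with at least 10 reads in each library and 5 at an adjusted p below 0.001, and 16 lower calls, which became 2, 7, 2 and 6. Shares of all unigenes were counted for the edgeR settings, given above, but not for the 4-fold, 10-read or 0.001 settings. Falls under the latter are therefore not read as a trait of the members or lists. TMM and median-of-ratios scaling shifted all log2 values by 0.05 and 0.08, which brought Peroxidase 4 (comp27256_c0) to log2 1.00 and 1.03 and past the call rule. The share ratio of 1.36 became 1.41 with TMM, 1.44 with the median of ratios, 1.42 on summed RPKM and 1.40 for members whose Nr hit names a peroxidase, and 2.13, 1.07 and 1.48 without comp34449_c0, without comp32955_c0 and without both. The last 4 alternatives were chosen after seeing the data. On RPKM + 1, comp28674_c0 (log2 0.78) and comp32880_c0 (0.83) were no longer called, and at an adjusted p below 0.001 comp28674_c0 was not. The cause of these changes beyond the construction of each setting was not tested. No setting could reverse a direction among the 16 members tried, so their unchanged directions are no check. The tests, filters and thresholds leave the log2 value as it is, and a pseudocount cannot change its sign. The scalings add at most 0.08, and the lower member nearest to no difference, comp34449_c0, had a log2 of −0.11.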
